A study of Mus musculus with 12 samples.

Results

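Dbp, Tef, Hlf, Nfil3, Ciart, Bhlhe40, Bhlhe41 and Usp2 are 8 regulators that stand at the output of the circadian clock, and their mRNA was followed here in the liver of mice with carbon tetrachloride (CCl4) fibrosis. The members were chosen by name for this role, with earlier results of these data known. All 8 were found among the 14188 genes of the protein-coding table, with 19 of its 29876 transcripts. The PZH group was 6 mice given both CCl4 and Pien Tze Huang (PZH), a traditional Chinese medicine, and the control group was 6 mice given CCl4 and water. CCl4 was injected into the peritoneum in both groups, and PZH or water was given into the stomach once a day. All mice were male and 6 weeks old at the start, and the livers were taken in week 8. The labels give the strain as C57BL/8, while the methods of the study name C57BL/6J. None of these RNA samples came from an animal without CCl4, so the values describe PZH against water in injured liver. The study reports that serum ALT and AST, enzymes it used to gauge liver injury, were higher in the control group in the final week. The degree of injury therefore differed along with the treatment, and its part in the differences between the groups was not tested. The hour of the day at which the livers were taken is not given in the sources used here, so a different hour and a different treatment cannot be told apart for genes of this kind.

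The circadian clock of liver cells is a loop in which the activators Arntl and Clock bind E-box elements and switch on their own repressors. The PAR bZIP factors Dbp, Tef and Hlf are controlled by this loop and activate genes that carry D-box elements, such as enzymes of drug and bile acid metabolism. Nfil3 (also called E4BP4) binds the same D-boxes and represses them, and in liver its mRNA and that of Dbp are known to peak at opposite times of the day. Ciart (Chrono), Bhlhe40 (Dec1) and Bhlhe41 (Dec2) repress the E-box activity of Arntl and Clock, and Usp2 is a deubiquitinase whose mRNA cycles in many tissues.

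The E-box letters were searched in the promoters of the members because the E-box is the element that Arntl and Clock bind. The promoters are from RefSeq (GRCm38.p6), as windows of 250 bases before a start site, and 7 of the 8 members were matched, with 8 windows, while Bhlhe40 was not. CACGTG, which reads the same on both strands, was found in the windows of 3 members. It occurred in 6.02% of the 32851 windows of all genes. Ciart held it at 3 positions, 116, 58 and 44 bases before its start site, and Bhlhe41 held it 153 bases before. Tef held it in both of its windows, 127 and 138 bases before the RefSeq start sites. The window with the E-box at 127 bases begins within an annotated exon, after the annotated start of the transcript Tef-202. The windows of Dbp, Hlf, Nfil3 and Usp2 did not hold these letters. Only the 250 bases before a start site were searched, so this cannot show that these genes lack an E-box elsewhere. The Usp2 window lies at the start of its shorter transcript Usp2-202, and the start of the longer Usp2-201 was not searched. The D-box was searched as TTACGTAA or TTATGTAA on both strands, and it was in none of the 8 windows and in 0.931% of all windows. It was also in 0 of the 13 windows of known PAR bZIP and Nfil3 targets. With letters this rare, the search cannot show that a member lacks a D-box. The 3 sequences below show the bases that lie outside annotated exons, 5′ to 3′ on the strand of the gene, with the E-box in capitals. They cover chr3:95882252-95882478 (minus strand) for Ciart, chr15:81811164-81811413 (plus strand) for the start of the main Tef transcript, and chr6:145865559-145865670 (minus strand) for Bhlhe41.
Ciart: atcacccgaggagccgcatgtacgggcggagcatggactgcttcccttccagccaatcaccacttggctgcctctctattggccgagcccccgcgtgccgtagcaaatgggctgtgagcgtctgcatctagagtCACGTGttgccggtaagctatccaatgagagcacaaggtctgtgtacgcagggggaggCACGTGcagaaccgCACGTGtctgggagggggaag
Tef: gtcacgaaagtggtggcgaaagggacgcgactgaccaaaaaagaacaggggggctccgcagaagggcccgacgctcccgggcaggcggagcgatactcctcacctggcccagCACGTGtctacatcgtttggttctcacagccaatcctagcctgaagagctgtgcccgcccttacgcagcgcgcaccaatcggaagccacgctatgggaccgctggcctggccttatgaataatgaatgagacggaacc
Bhlhe41: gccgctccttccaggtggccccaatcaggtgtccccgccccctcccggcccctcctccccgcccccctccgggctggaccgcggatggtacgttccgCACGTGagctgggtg

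Expression is given as FPKM, a fragment number scaled to transcript length and library size, so that levels can be compared between genes. A gene was called changed at an adjusted p under 0.05 in limma on log2(FPKM + 1), with Benjamini-Hochberg adjustment over all genes, and each log2 fold change is PZH minus control on this scale, which understates the change of genes near or below 1 FPKM. Of the 14188 genes, 44.8% were called, with 12.7% higher under PZH and 32.1% lower, and the median log2 fold change was -0.11. With a median-ratio scale factor per mouse this median was -0.00104, and 50.6% of the called genes were higher in the PZH group in place of 28.3%. The sum of FPKM per mouse was 325302 to 370426. Nothing in the labels says whether libraries were made together, so a batch could not be examined, and the p-values measure the spread between these mice.

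By this threshold 7 of the 8 members were called, 6 of them higher in the PZH group (Dbp, Tef, Hlf, Ciart, Bhlhe41 and Usp2) and 1 lower (Nfil3), beside the 44.8% of all genes. The rule that the study used for transcripts, a 2-fold change with an unadjusted p under 0.05, applied here to genes took in 4 members, Dbp, Tef and Usp2 upward and Nfil3 downward, beside 4.02% of all genes (1.52% upward and 2.5% downward). Nfil3 and Ciart lie close to the 2-fold limit, a log2 fold change of 1, and Nfil3 fell short of it with the median-ratio factor (-0.92) or without control mouse 4 (-0.98), while Ciart passed it with that factor (1.12), with a pseudocount of 0.1 (1.38), or without control mouse 2, 5 or 6 or PZH mouse 1, 3 or 4. In 5 members the PZH and control mice did not overlap at all, with PZH above control in 4 and below in 1, beside 24.3% of all genes (6.46% above and 17.9% below). The median log2 fold change of the 8 members was 0.85.

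Dbp activates D-box genes and was the member with the largest difference. The gene lies at chr7:45705088-45710203 on the plus strand. Its FPKM was 11.8 in the lowest PZH mouse, 18.9 at the median and 26.1 in the highest, while in the control group it was 0.470, 2.18 and 3.57. Every PZH mouse was therefore above every control mouse, and the lowest PZH mouse was well above the highest control mouse. The means were 18.5 ± 4.97 and 2.11 ± 1.29 FPKM (SD, n = 6 mice each), an 8.77-fold difference. The log2 fold change was 2.73 (SE 0.28, 95% interval 2.13 to 3.32) and the adjusted p in limma was 2.24e-05. By log2 fold change, Dbp ranked 7 of 14188 genes from the top. The exact permutation test (two-sided) gave p = 0.00216, the smallest value that 6 mice against 6 allow, and it gave this value for Tef, Hlf, Nfil3 and Usp2 as well.

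Tef, the second PAR bZIP activator, differed less than Dbp. It lies at chr15:81802421-81826863 on the plus strand. In the PZH group its FPKM had a lowest value of 16.0, a median of 24.5 and a highest value of 26.5, and in the control group these were 3.02, 8.37 and 14.7. The groups did not overlap, although the highest control mouse, number 6, came close to the lowest PZH mouse, number 1. Tef rose 2.81-fold, from 8.23 ± 4.03 to 23.1 ± 4.17 FPKM (SD, n = 6 each). Its log2 fold change was 1.49 (SE 0.27, adjusted p = 0.000693 in limma).

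Hlf, the remaining PAR bZIP activator, lies at chr11:90336536-90390895 on the minus strand. Its FPKM was 3.57, 4.55 and 5.12 at the lowest, median and highest PZH mouse, against 1.37, 2.50 and 3.31 in the control group. The groups were narrow and did not overlap. The means were 4.49 ± 0.589 and 2.39 ± 0.719 FPKM (SD, n = 6 each), 1.88-fold apart. The log2 fold change of Hlf was 0.72 (SE 0.14, adjusted p = 0.000975 in limma), which was the smallest of the 3 activators.

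Nfil3, the repressor of D-box genes, was the member that fell. It lies at chr13:52967209-52981073 on the minus strand and has 1 listed transcript. Its FPKM in the PZH group was 4.09, 5.44 and 6.84 at the lowest, median and highest mouse, and in the control group it was 8.34, 12.6 and 18.5. Every PZH mouse was below every control mouse. The control mean of 12.9 ± 4.13 FPKM was 2.41-fold above the PZH mean of 5.34 ± 0.922 (SD, n = 6 each), with a log2 fold change of -1.09 ± 0.18 (SE) and an adjusted p of 0.000394 in limma.

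Since activators and repressor share one DNA element, their levels were also set against each other within each mouse, as a description with no test. The ratio of Dbp to Nfil3 FPKM was 2.68 to 4.74 over the PZH mice (median 3.35) and 0.0283 to 0.369 over the control mice (median 0.190). For Tef to Nfil3 it was 3.79 to 4.96 in the PZH group against 0.182 to 1.17 in the control group. For Hlf to Nfil3 it was 0.710 to 0.927 against 0.0822 to 0.347. The summed FPKM of the 3 activators was thus at least 7.33 times that of Nfil3 in every PZH mouse and at most 1.72 times in every control mouse. Control mouse 1 had the lowest of these ratios, 0.292.

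**Figure D1:**
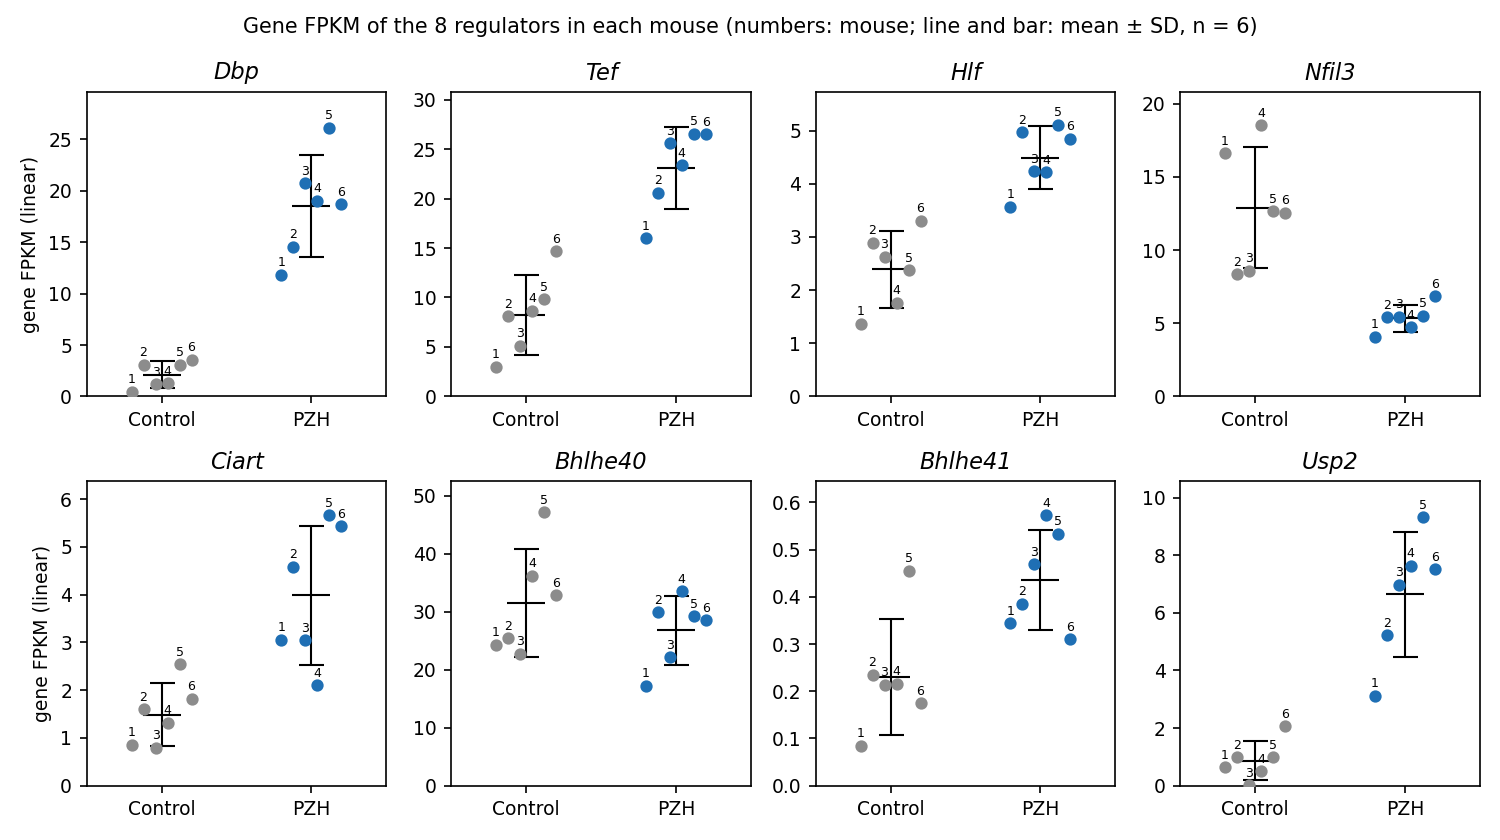
FPKM of each member in each mouse, on a linear axis that starts at 0 and differs between panels. Points are the 6 control and 6 PZH mice, numbered as in the labels, and the line and bar give mean and SD. For Dbp the PZH mice lie between 11.8 and 26.1 and the control mice between 0.470 and 3.57, while for Bhlhe40 the groups overlap from 22.7 to 33.5.

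Of the 3 repressors of the E-box loop, Ciart and Bhlhe41 were called higher and Bhlhe40 was not called. Ciart, at chr3:95878503-95882251 on the minus strand, had an FPKM of 2.11, 3.83 and 5.66 at the lowest, median and highest PZH mouse and of 0.796, 1.46 and 2.54 in the control group. PZH mouse 4 lay below control mouse 5, so the groups overlapped. Ciart nevertheless rose 2.68-fold, from 1.49 ± 0.653 to 3.99 ± 1.45 FPKM (SD, n = 6 each), with a log2 fold change of 0.99 ± 0.21 (SE) and an adjusted p of 0.00222 in limma. The exact permutation test gave p = 0.00433.

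Bhlhe40 was the most abundant member in both groups and was not called. It lies at chr6:108660629-108666925 on the plus strand. Its FPKM was 17.3, 28.8 and 33.5 at the lowest, median and highest PZH mouse and 22.7, 29.1 and 47.1 in the control group. The medians were nearly equal, and the 2 highest values were those of control mice. The means were 26.8 ± 5.93 and 31.4 ± 9.30 FPKM (SD, n = 6 each), and the log2 fold change was -0.21 (95% interval -0.62 to 0.20, adjusted p = 0.402 in limma). The exact permutation test gave p = 0.353.

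Bhlhe41, its close relative on the same chromosome at chr6:145858243-145865558 (minus strand), was the least abundant member. Its FPKM was 0.310, 0.428 and 0.573 at the lowest, median and highest PZH mouse, and 0.0846, 0.215 and 0.456 in the control group. Control mouse 5 lay inside the PZH range, and the other control mice lay below it. The means were 0.436 ± 0.106 and 0.230 ± 0.123 FPKM (SD, n = 6 each), 1.90-fold apart, with a log2 fold change of 0.23 ± 0.08 (SE) and an adjusted p of 0.0289 in limma (exact permutation p = 0.0152). At so low a level the added 1 dominates the log2 scale, and with a pseudocount of 0.1 the log2 fold change was 0.75. The call of Bhlhe41 was lost when control mouse 1 or 6, or PZH mouse 3, 4 or 5, was left out, with an adjusted p in limma of up to 0.0665.

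Usp2, the deubiquitinase, had the second largest difference of the members. It lies at chr9:44067021-44095627 on the plus strand. The FPKM of the PZH mice was 3.13, 7.25 and 9.32 at the lowest, median and highest, and that of the control mice was 0.0280, 0.820 and 2.06. The groups did not overlap, and Usp2 was close to 0 in the lowest control mouse. The means were 6.64 ± 2.16 and 0.869 ± 0.686 FPKM (SD, n = 6 each), 7.64-fold apart. The log2 fold change was 2.05 (SE 0.26, adjusted p = 6.72e-05 in limma). It was 3.14 with a pseudocount of 0.1 in place of 1, since the control values lie mostly below 1.

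Most members have several listed transcripts, and these were tested over all transcripts of the table. Of the 19 transcripts of the members, 11 were called, 10 higher and 1 lower, beside 19.7% of all transcripts (5.73% higher and 14.0% lower). In 8 of the 19 every PZH mouse was above every control mouse, and in 1 below, beside 3.41% and 8.58% of all transcripts. For Dbp, the full-length Dbp-201 (4 exons, 325 coding residues) made up 80.3% of the summed FPKM and had a log2 fold change of 2.71, and the shorter Dbp-204 had 1.503. Tef-201 made up 85.8% of Tef and had 1.40, and Tef-202, which starts further upstream and codes for 285 residues in place of 301, had 0.57. A short Tef fragment, Tef-210, had 1.32. All of these were called, and so was Hlf-201 at 0.71, while Hlf-206 was not (0.24, adjusted p = 0.118 in limma).

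Usp2 has a long and a short isoform that start at different promoters. Usp2-201, with 619 coding residues, rose from a control mean of 0.570 to 3.73 FPKM, and Usp2-202, with 396, rose from 0.299 to 2.54. Both were called, with log2 fold changes of 1.58 and 1.43, so that both isoforms moved the same way as their sum. Usp2-206 was listed at 0 in all control mice and in PZH mice 1, 2, 4 and 5, and was not called. For Ciart, the long Ciart-201 and Ciart-202 were called (0.60 and 0.87) and the shorter Ciart-205 and Ciart-206 were not. Neither Bhlhe40 transcript was called (-0.23 for Bhlhe40-201, which held 96.7% of the gene). Bhlhe41-201, the same values as its gene, was not called over transcripts (adjusted p = 0.0626 in limma).

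The share of each transcript in its gene gave no call. Of 17 member transcripts with a tested share, 0 were called in limma and 1, Tef-210, had an unadjusted p under 0.05, beside 0.345% of all transcript shares called. The share of Tef-210 was 10.03% ± 2.66 in the PZH group against 5.01% ± 5.06 in the control group (SD, n = 6 each). The share of Dbp-201 was 80.8% ± 4.22 against 72.4% ± 10.2. In Usp2 the share of Usp2-201 was 56.4% ± 6.29 against 63.1% ± 23.6, so the control shares were spread too widely to be compared closely.

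**Figure D2:**
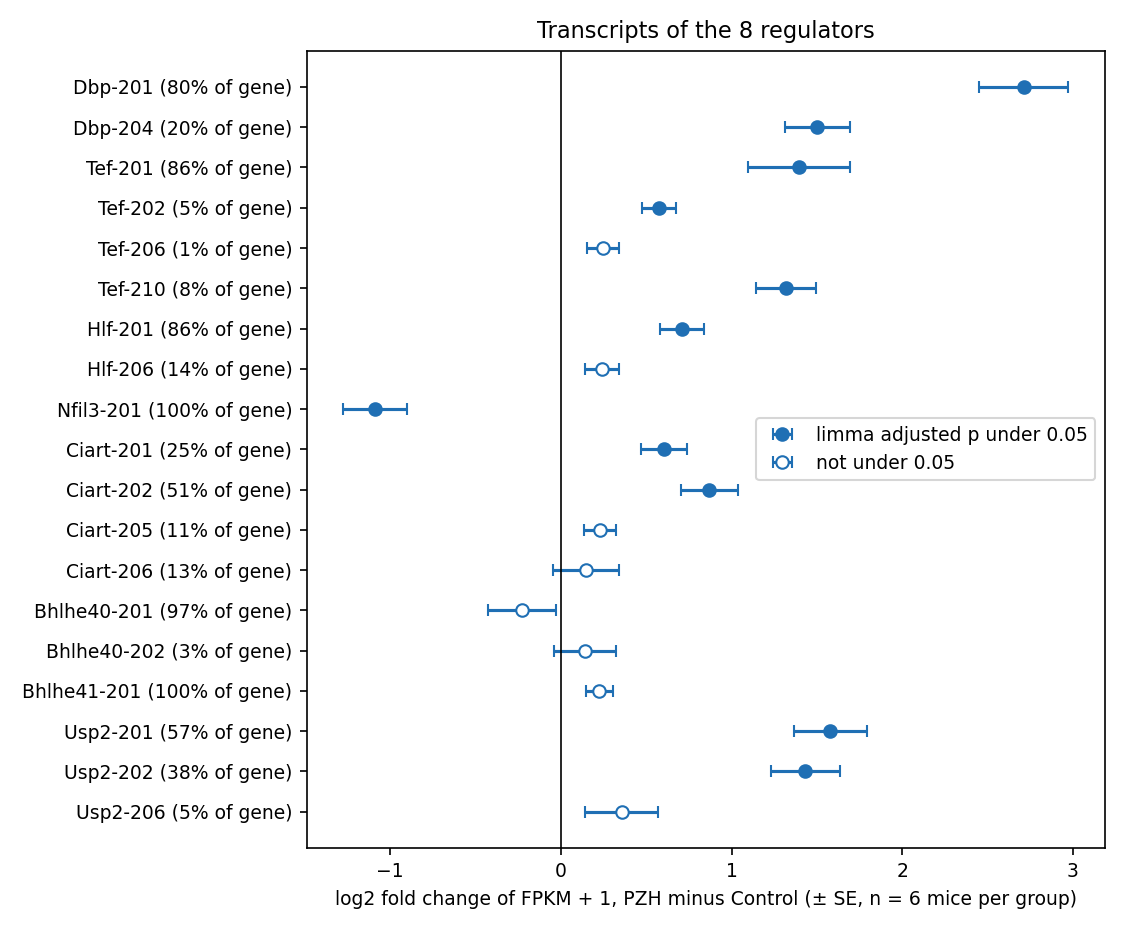
Log2 fold change (PZH minus control, of FPKM + 1) of the 19 listed transcripts with bars of 1 SE, filled where the limma adjusted p was under 0.05, with the share of the gene in brackets. Dbp-201 lies highest at 2.71, Usp2-201 and Usp2-202 lie near each other at 1.58 and 1.43, and Nfil3-201 is the transcript that fell, at -1.09.

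The order of the members by mean FPKM differed between the groups. In the PZH group it was Bhlhe40, Tef, Dbp, Usp2, Nfil3, Hlf, Ciart and Bhlhe41, and the ranges of neighbours overlapped except between Dbp and Usp2 and between Ciart and Bhlhe41. In the control group it was Bhlhe40, Nfil3, Tef, Hlf, Dbp, Ciart, Usp2 and Bhlhe41, and here Bhlhe40 and Nfil3 alone had ranges that did not overlap. Dbp thus ranked 3 in PZH mice and 5 in control mice, where 3 of 6 mice had more Hlf than Dbp. These are FPKM levels, and no test was made of the order.

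The spread between mice was smaller in the PZH group for each of the 8 members. The coefficient of variation (SD as a percent of the mean) of Dbp was 26.8% in PZH mice and 61.1% in control mice, that of Tef was 18.1% and 48.9%, and that of Usp2 was 32.6% and 78.9%. Dbp, Tef and Usp2 had the lower mean in the control group. Nfil3, which was higher in the control group, had 17.3% and 32.05%, and Bhlhe40, which was not called, had 22.2% and 29.6%. Of 10948 genes with a mean FPKM of at least 1, 37.7% had the smaller coefficient in the PZH group. Single mice recurred at the ends of the ranges, with PZH mouse 1 lowest in 6 members and PZH mouse 5 highest in 5, and with control mouse 1 lowest in 4 and control mouse 6 highest in 4.

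Whether the members varied together between mice of the same treatment was asked within each group, with log2(FPKM + 1) and exact permutation over the 720 orders of 6 mice, for 56 relations in all. The median Pearson r of the 28 pairs was 0.611 in the PZH group (range -0.39 to 0.958, above 0 in 26 pairs) and 0.488 in the control group (-0.72 to 0.884, above 0 in 23 pairs). Exact p-values of Pearson r under 0.05 were found for 3 pairs of the PZH and 4 of the control group. After Benjamini-Hochberg adjustment there were 0 in either group, and the lowest adjusted exact p was 0.175. The PZH median was 0.0902 without PZH mouse 1. Without the 2 mice farthest from the median of the first gene of each pair it was 0.263. PZH mouse 1 was the lowest PZH mouse in 6 members, so leaving it out also narrows the range. These values therefore cannot show that the median rests on single mice.

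Dbp and Tef were the pair with a high correlation in both groups. In the PZH group r was 0.910 (rho 0.829, exact p = 0.00972 and 0.0583, adjusted 0.175 and 0.327), and without the 2 farthest mice it was 0.853. In the control group r was 0.884 (rho 0.943, exact p = 0.00694 and 0.0167, adjusted 0.175 and 0.327), and without the 2 farthest mice 0.636. Mice with more Dbp therefore tended to have more Tef, at both levels of expression, although neither relation passed the adjustment.

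Usp2 followed the same mice in the PZH group. Its r with Dbp there was 0.951 (rho 0.829, exact p = 0.00694 and 0.0583, adjusted 0.175 and 0.327) and 0.864 without the 2 farthest mice. With Tef it was 0.958 (rho 0.829, exact p = 0.0125 and 0.0583, adjusted 0.175 and 0.327). The r of Tef and Usp2 was 0.324 without the 2 farthest mice, but 0.829 to 0.974 with 1 mouse left out. In the control group r was 0.694 for Dbp and Usp2 and 0.676 for Tef and Usp2.

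The remaining pairs with an exact p of Pearson r under 0.05 were in the control group. Dbp and Ciart had an r of 0.850 (rho 0.886, exact p = 0.0375 and 0.0333, adjusted 0.315 and 0.327), and 0.836 without the 2 farthest mice. Dbp and Hlf had 0.836 (rho 0.714, exact p = 0.0361 and 0.136, adjusted 0.315 and 0.476), and 0.483 without them. Ciart and Bhlhe40 had 0.836 (rho 0.829, exact p = 0.0431 and 0.0583, adjusted 0.315 and 0.327), and 0.449 without them. With 1 mouse left out, r was 0.651 to 0.954 for Dbp and Hlf and 0.637 to 0.934 for Ciart and Bhlhe40. By rank alone, Ciart and Usp2 had a rho of 0.886 (exact p = 0.0333, adjusted 0.327).

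Nfil3, the repressor, had no relation to the 3 activators with an exact p of Pearson r under 0.05 in either group. By rank it rose with Tef in PZH mice (rho 0.886, exact p = 0.0333, adjusted 0.327). Its r with Hlf was -0.72 in control mice, but 0.05 without the 2 farthest mice, and 0.78 in PZH mice (0.63 without them). With Tef it was -0.08 in control mice (0.57) and 0.78 in PZH mice (0.80). With Dbp it was -0.42 in control mice (-0.27) and 0.52 in PZH mice (0.01). Leaving out the 2 farthest mice narrows the range of the first gene, so it cannot show that a relation rests on them. With 1 mouse left out, r of Hlf and Nfil3 stayed at -0.90 to -0.66 in control mice. That of Dbp and Nfil3 was -0.01 to 0.69 in PZH mice. No difference between the groups was tested.

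**Figure D3:**
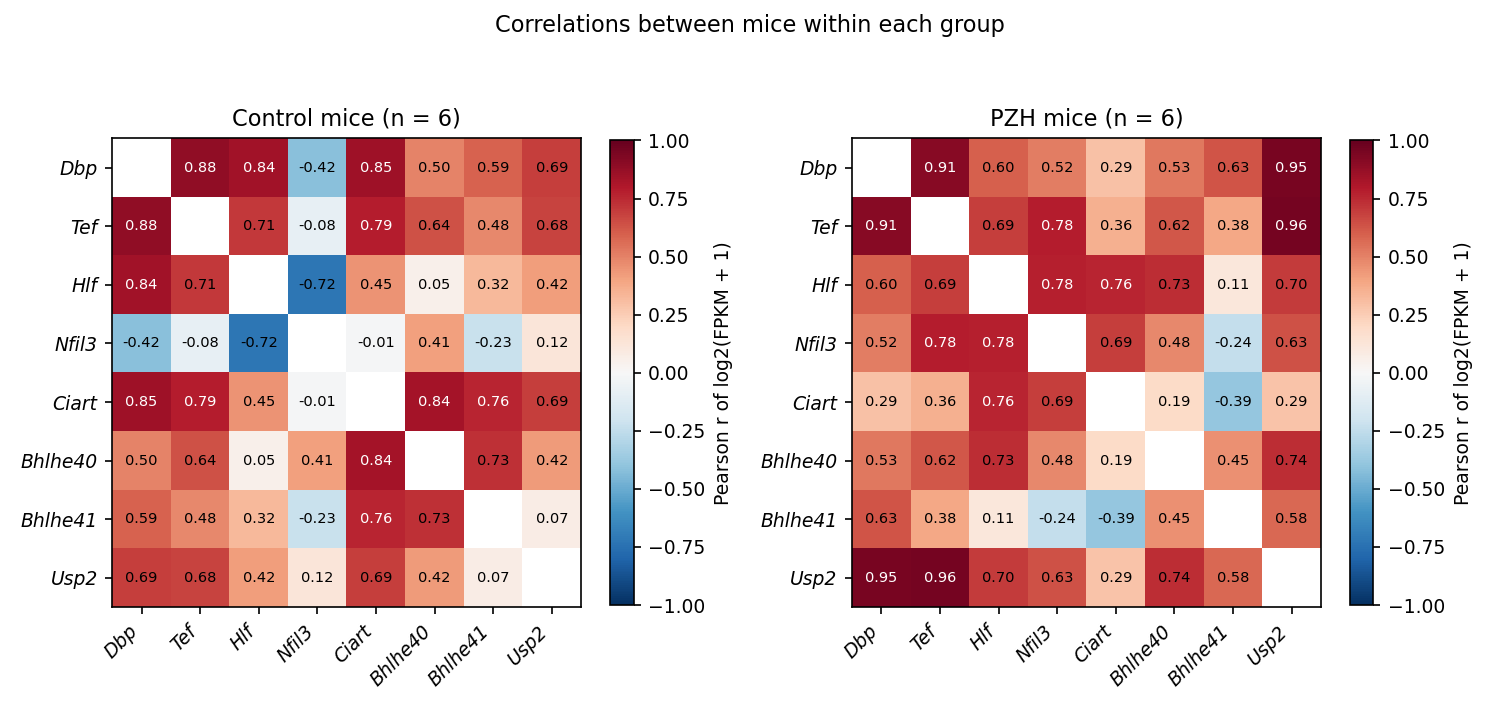
Pearson r of log2(FPKM + 1) between each pair of members over the 6 control mice (left) and the 6 PZH mice (right), with the colour scale running from -1 to 1. Dbp with Tef is high on both sides (0.88 and 0.91), and the row of Nfil3 is mostly near or below 0 in control mice and mostly above 0 in PZH mice.

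The genes most like each member were found by the correlation of deviations from the group means over the 12 mice, among the other genes with a mean FPKM of at least 1 (10947, or 10948 for Bhlhe41, which is itself below 1). This is a description with no p, and the group difference itself does not enter it. The highest r among so many genes over 12 mice can be large by selection alone, and no link between genes was tested. For Dbp these were Ephx1 (r = 0.919), a drug-metabolising epoxide hydrolase, Per3 (0.916), a clock gene, and Klf15 (0.907), a transcription factor of liver metabolism. For Tef they were Per3 (0.971), Nr1d2 (0.916), the clock repressor REV-ERBβ, and Sh3bp5l (0.914). For Hlf they were Ppara (0.935), a nuclear receptor of fatty acid oxidation, Sipa1l3 (0.922) and Irs1 (0.915), an adaptor of insulin signalling. Among the members themselves, Tef was the 7th nearest gene to Dbp (0.880) and Dbp the 10th nearest to Tef.

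Nfil3 had other neighbours, Litaf (0.931), Syt12 (0.928) and Pnrc1 (0.927), and its r was -0.22 with Dbp and 0.06 with Tef. Those of Ciart were Usp21 (0.917), Zfp866 (0.899) and Pih1d1 (0.891), and those of Bhlhe40 were Reep4 (0.911), Syne3 (0.887) and Lrfn4 (0.876). Bhlhe41 was nearest to Arl6ip4 (0.901), Cdc42ep3 (0.832) and H2-Q6 (0.816), the last of which has close paralogs that share sequence. Usp2 was nearest to Map3k10 (0.892), Pick1 (0.889) and Gtpbp6 (0.887). Against the clock activator Arntl, the deviations of Dbp had an r of -0.81, those of Tef -0.87 and those of Nfil3 -0.16.

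The other genes of the pathway were read from lists chosen by role, also with earlier results of these data known. Of the 15 genes of the core clock, 5 were higher, 3 lower and 7 not called, and the total called is near the 44.8% of all genes. By direction, 12.7% of all genes were higher and 32.1% lower, while in this list more were higher than lower. This contrast depended on the scale, since with the median-ratio factor 50.6% of all called genes were higher. The number lower was 5, as many as were higher, without control mouse 1 or without PZH mouse 5. It was 7, beside 5 higher, with mice blocked by number. Their median log2 fold change was -0.19, beside -0.11 over all genes. Among the rises were those of Per3, with 5.34 to 7.70 FPKM in PZH mice and 0.346 to 2.09 in control mice (log2 fold change 1.88), and Nr1d1, the repressor REV-ERBα (1.11). The largest falls were those of Cry1, a repressor of the loop, with 1.16 to 1.83 FPKM against 3.52 to 5.70 (-1.08), Arntl (-0.75) and Rora, a nuclear receptor that activates Arntl (-0.71). Clock, the partner of Arntl, was at -0.19 (adjusted p = 0.103 in limma). Per1 and Per2 were not called.

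The list of known PAR bZIP and Nfil3 targets of liver held 14 genes, of which 9 were higher, 1 lower and 4 not called, beside 12.7% of all genes higher and 32.1% lower, and the median log2 fold change was 0.70. The number higher was 6 when each gene was read from its most abundant transcript, and the number lower was 2 without control mouse 2 or 4 or PZH mouse 4 or 5. Cyp7a1, the rate-limiting enzyme of bile acid synthesis, had 35.5 to 155 FPKM in PZH mice and 0.0970 to 8.92 in control mice, a log2 fold change of 4.54 ± 0.53 (SE) and an adjusted p of 4.63e-05 in limma. Nr1i3 (CAR), a receptor for drugs and other foreign compounds, had 1.15 and its target Cyp2b10, a drug-metabolising cytochrome P450, had 1.14. Both overlapped between the groups. Fgf21, a hormone of fasting that Nfil3 is known to repress, was the gene that fell, with a log2 fold change of -1.66, and it overlapped too. The genes not called were Cyp2a4 (-0.06), Cyp2a5 (-0.53), Per1 and Per2. Per1 and Per2 are in this list as well as in the core clock. Beside the list median of 0.70, the 6 hepatocyte markers given below had a median log2 fold change of 0.50. Of these markers 3 were higher, 1 lower and 2 not called. The part of hepatocyte RNA in the differences of this list was not tested.

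Of 16 other genes with a daily rhythm in liver, 4 were higher, 4 lower and 8 not called. The total called is near the 44.8% of all genes, of which 12.7% were higher and 32.1% lower. The median log2 fold change of the list was -0.17. Among the rises were those of Rgs16 (1.54), a regulator of G protein signals, and Gys2 (1.42), the glycogen synthase of liver. The largest falls were those of Tubb2a, a tubulin (-2.17), Insig2, which restrains lipid synthesis (-0.64), and Tars, a threonyl-tRNA synthetase (-0.60). With the median-ratio scale factor Insig2 was no longer called (-0.45, adjusted p = 0.0764 in limma).

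**Figure D4:**
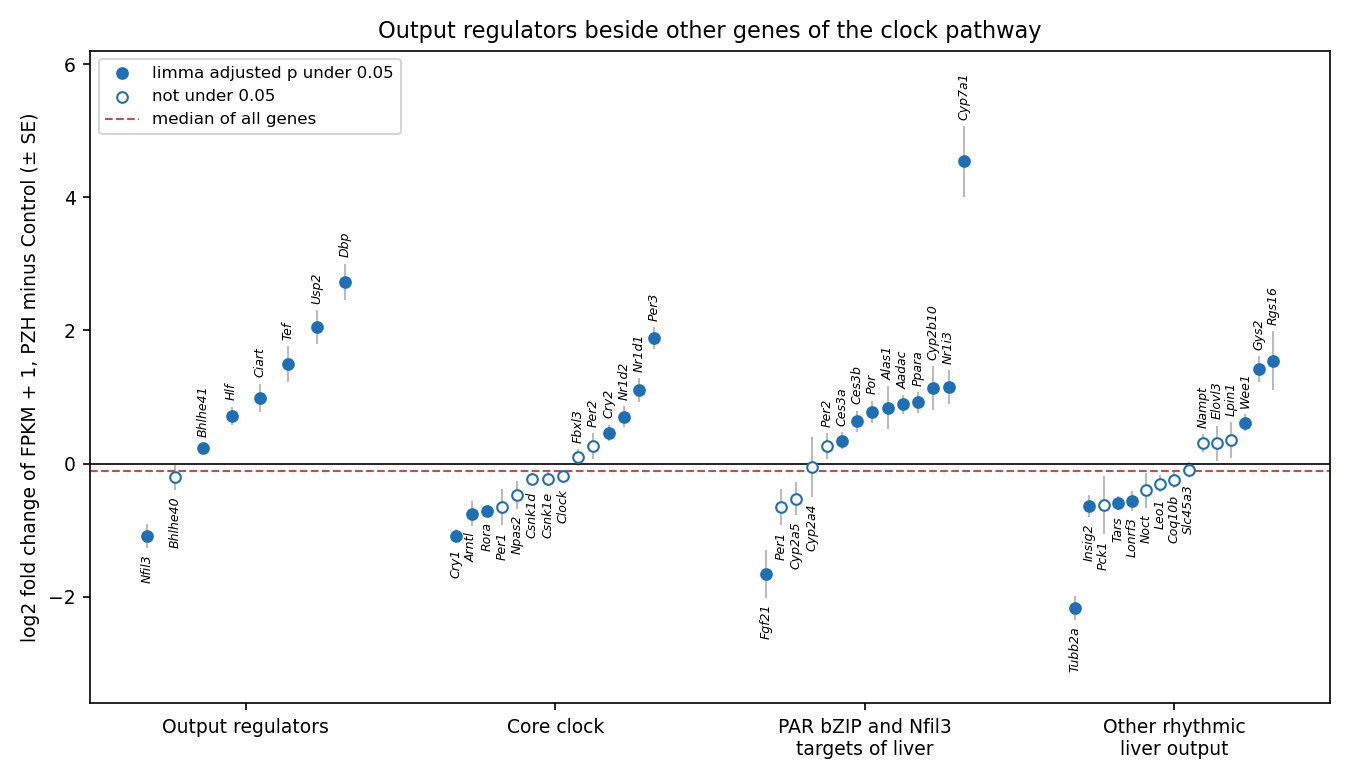
Log2 fold change (PZH minus control, of FPKM + 1) of the members and of genes from 3 clock pathway lists, with bars of 1 SE, filled where the limma adjusted p was under 0.05, and a dashed line at the median of all genes. Cyp7a1 at 4.54 lies above Dbp at 2.73, and Tubb2a at -2.17 lies lowest.

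The tissue was checked against markers of the cell types of liver, since fewer cells of a type and less RNA per cell cannot be told apart in bulk tissue. Of 6 hepatocyte markers, 3 were higher and 1 lower under PZH, and their summed FPKM was 39757 to 55487 in PZH mice and 21854 to 35472 in control mice. Alb, Ttr and Cps1 rose, and Hnf4a, a transcription factor of hepatocytes, was lower, at 105 to 146 FPKM against 156 to 179. Alb alone was 80.6% to 84.3% of this sum in a mouse, and the other 5 markers summed to 6397 to 9125 FPKM against 3839 to 6248. The part of hepatocyte RNA in the members' differences was not tested.

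Among the other cell types, 4 cholangiocyte markers summed to 5.40 to 7.60 FPKM in PZH mice and 11.9 to 18.8 in control mice. Sox9 was the 1 of them that was called, with 2.22 to 3.42 against 8.64 to 13.5, and it made most of the difference in the sum. Krt7, Krt19 and Epcam had log2 fold changes of -0.04, -0.04 and 0.30. Of 7 stellate cell and myofibroblast markers 1 was higher and 2 lower (sums 104 to 177 against 83.6 to 148), and of 5 macrophage markers 2 were higher and 2 lower (104 to 155 against 107 to 156). One of 4 neutrophil markers was lower (7.44 to 122 against 12.9 to 53.4), and 1 of 4 endothelial markers was lower (64.8 to 80.7 against 64.9 to 76.8). None of 5 T and NK cell markers (1.53 to 3.16 against 1.86 to 3.60) and none of 3 B cell markers (3.64 to 5.65 against 2.86 to 5.70) was called. Ly6g of the neutrophils and Epcam of the cholangiocytes reached 0 in some mice, and no marker was at 0 in all. The marker calls depended on the scaling, with 6 higher and 8 lower of 38 as deposited and 15 higher and 5 lower with the median-ratio factor, under which Hnf4a lost its call (log2 fold change -0.11, adjusted p = 0.250 in limma). Nfil3 and Bhlhe40 are also known from immune cells, and the part of these cells in the values was not tested.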

How the data were processed

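RNA of 12 livers, 6 of the PZH group and 6 of the control group, was depleted of ribosomal RNA and sequenced with strand information by the authors. Reads were trimmed with Trimmomatic, mapped to GRCm38 with HISAT2 and assembled with StringTie, per the labels and the methods of the study. The authors deposited FPKM per transcript and mouse, on a linear scale. These values are already divided by length and library size, so reads per gene cannot be read from them, and 6.31% to 8.43% of the values up to 0.5 FPKM of a mouse fell within 0.02 of a whole multiple of 1 read at the best depth. Whole reads could thus not be regained, and the error of each value is the spread between mice. The table of long non-coding transcripts was not used here.

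Gene FPKM was the sum over its listed transcripts, with 29876 of 29883 transcripts assigned by GENCODE M21, which is also the source of the gene positions. Values were compared as log2(FPKM + 1) in limma 3.58.1 (R 4.3.3) with default moderation and no filter on low values. Transcript shares were tested for genes with a mean of at least 1 FPKM. Single values were compared by permuting the group labels of the mice in all 924 ways, two-sided. The other steps ran in Python 3.11.15 (scipy 1.17.1, pandas 2.3.3, numpy 2.4.6, with plots by matplotlib 3.10.9). The fit was tested on simulated data. Mice of a group correlated at 0.971 to 0.985 across genes.

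The members and lists were chosen with earlier results of these data known. The text names all members, the up to 3 largest rises and falls called in each list, the 3 genes most like each member, and member transcripts with 10% or more of their gene or with a call. Usp2-206, Clock, Per1, Per2, Cyp2a4, Cyp2a5 and the marker genes are named outside this rule, after their values were seen. Of the list genes that the rule gave, 2 are not reported here and are not plotted. Each result was recomputed with a smaller pseudocount (0.1), with genes of at least 1 FPKM on average, with 2 rescalings per mouse (median ratio and equal sum), with a mean-variance trend, with the most abundant transcript in place of the sum, with mice blocked by number, and without each mouse in turn.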

Additional observations from a re-analysis of the deposited data

How the results depend on the processing

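Dbp, Tef, Hlf, Nfil3, Ciart and Usp2 kept their direction and their call under all 7 alternatives and with each of the 12 mice left out, and Bhlhe40 was called under none of them. Dbp ranged from 2.53 to 3.30 on the log2 scale over these and Nfil3 from -1.21 to -0.92. Bhlhe41 was called under 6 of the 6 alternatives that could be run, since a mean FPKM of at least 1 removes it, and with 7 of 12 mice left out. The number of members called was 6 or 7 throughout. The median r of members in the PZH group moved from 0.611 to 0.263 without the 2 farthest mice, and ranged from 0.0902 to 0.708 with 1 mouse left out, lowest without PZH mouse 1. The cause was not tested. In the control group it ranged from 0.439 to 0.566. With the replicate block, in which mice of the same number form a pair, 5982 genes were called in place of 6358, and the 7 members kept their calls. Same-numbered mice did not deviate together (r -0.07 to 0.08, 0 of 6 pairs over 0.1, and 1 of 6 PZH mice most like the control mouse of its number), so the numbers were not taken as a pairing. Over the alternatives other than leaving out a mouse, the called genes numbered 8 to 12 of the core clock list, 7 to 10 of the target list and 8 or 9 of the other rhythmic genes, with the 12 under the replicate block (5 higher and 7 lower). Depth in reads is unknown, and Bhlhe41 and the control mean of Usp2 lie below 1 FPKM.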
